A study of Drosophila melanogaster with 24 samples.

Results

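The 2 chromatin immunoprecipitation sequencing (ChIP-seq) libraries of RNA polymerase II (Pol II) were set against the 2 of the SAGA subunit Non-stop, to ask how far the polymerase and the deubiquitinase occupy the same places in the Drosophila melanogaster embryo. The members were chosen by the antibody in their labels. They are 4 of the 24 samples of the series and hold 42640 of the 83085 peaks in its 14 ChIP peak lists. The other 10 lists belong to the SAGA subunits Ada2b (4), Spt3 (3) and Sgf11 (3), and the remaining 10 samples are total chromatin, not analysed here on their own. All libraries came from fixed whole embryos aged 1 to 3 h, with no mutation or treatment named in the labels, so each list mixes all the cell types of the embryo. Pol II libraries 1188_2 and 1632_1 were made with the mouse antibody 4H8, whose labelled epitope is the repeat of the C-terminal domain (CTD) phosphorylated on serine. Non-stop libraries 1924_1 and 1924_2 were made with a rabbit antibody raised to a stretch of the Non-stop protein. The first part of a library number names a set, and no set held both factors. Antibody, set and factor therefore cannot be told apart in any difference between Pol II and Non-stop. Nothing in the labels says that libraries of a factor came from separate embryo collections, so p-values measure only the spread between these libraries.

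SAGA is a coactivator complex that is recruited to genes by activators and carries separate enzymatic modules. Non-stop is the ubiquitin protease of its deubiquitinase module and takes ubiquitin off histone H2B, a mark that is laid down in step with transcription by Pol II. Sgf11 is a partner of Non-stop in that module, Ada2b belongs to the histone acetyltransferase module and Spt3 to the SPT module. The CTD of Pol II is a repeated tail whose serines are phosphorylated as the enzyme leaves the promoter and elongates. Pol II can thus be crosslinked both at start sites and along transcribed genes.

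Peaks of the 2 factors were similar in number and different in shape. Pol II gave 11440 peaks in 1188_2 and 10569 in 1632_1, against 8558 in Non-stop 1924_1 and 12073 in Non-stop 1924_2. The mean was 11004.5 ± 616 for Pol II and 10315.5 ± 2485 for Non-stop (SD, n = 2 each), and the lists of the 2 factors overlapped in size (log2 difference of 0.11, exact permutation p = 1). Without Non-stop 1924_1 this difference was -0.13. Pol II peaks covered 17.5 Mb in 1188_2 and 11.1 Mb in 1632_1, against 4.49 Mb in Non-stop 1924_1 and 6.20 Mb in Non-stop 1924_2. Both Pol II libraries thus covered more than either Non-stop library, with a log2 difference of 1.40. The median peak was 583 and 489 bp wide in Pol II 1188_2 and 1632_1, against 362 and 374 bp in Non-stop 1924_1 and 1924_2. The log2 difference in median width was 0.54, again with no overlap between the factors. For covered bases and for width the exact two-sided permutation p was 0.333, the smallest that 2 libraries against 2 can give (0.556 after Benjamini-Hochberg adjustment over 5 tests).

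The factors differed in width over the whole distribution and most in its upper tail. The lower quartile of width was 328.75 and 312.0 bp in the Pol II libraries, against 273.0 and 279.0 bp in the Non-stop libraries. Peaks over 2 kb made up 19.6% of Pol II 1188_2 and 11.7% of Pol II 1632_1, against 2.59% of Non-stop 1924_1 and 1.77% of Non-stop 1924_2. They held 67.6% and 52.1% of the covered bases in the Pol II libraries, against 14.9% and 10.6% in the Non-stop libraries. Peaks of 10 kb or more numbered 227 and 83 in the Pol II libraries, and the Non-stop libraries had none. The broadest Pol II peak spanned 51927 bp on 3R (6388511 to 6440437, dm3) in 1188_2 and held 28 and 23 summits of Non-stop 1924_1 and 1924_2. In 1632_1 the broadest spanned 42604 bp on 2L (208475 to 251078) and held 18 summits of each Non-stop library. A summit is the base of highest signal in a peak. Fold enrichment at the summit had a median of 2.95 and 2.22 in the Pol II libraries, against 3.09 and 3.14 in the Non-stop libraries. The sequencing depth of every library is unknown, and peak number and width can both move with depth.

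**Figure D1:**
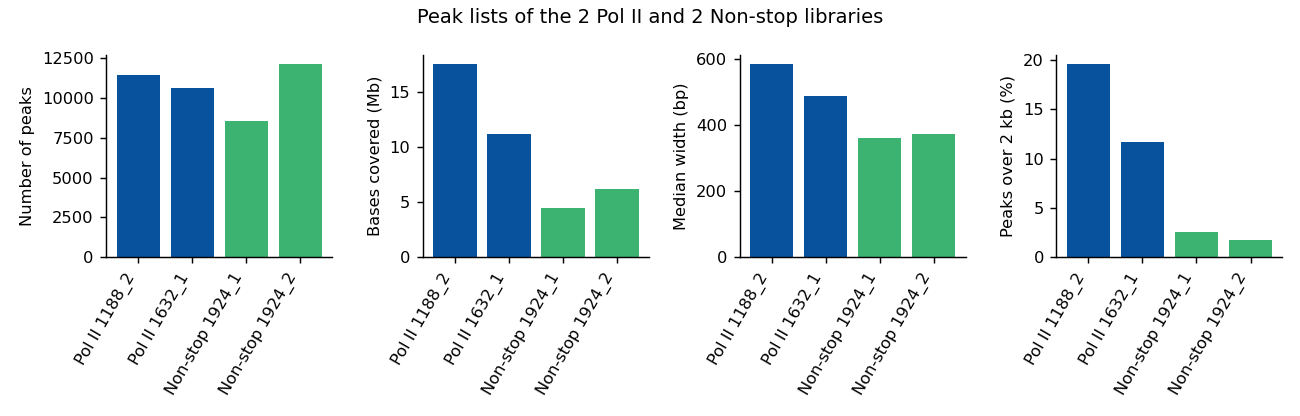
Number of peaks, bases covered (Mb), median peak width (bp) and share of peaks over 2 kb (%) in each library, 1 bar a library, Pol II in blue and Non-stop in green. Pol II lists covered 17.5 and 11.1 Mb, against 4.49 and 6.20 Mb for Non-stop, while the numbers of peaks overlapped.

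With the called widths, the share of peaks that met the other factor was unequal in the 2 directions. As a background for single bases, Pol II 1188_2 covered 10.4% of all bases and Pol II 1632_1 6.63%, against 2.67% for Non-stop 1924_1 and 3.69% for Non-stop 1924_2. Whole peaks have width and would meet the other list by 1 bp more often than these shares. Chromosome lengths were read from the highest peak end over the 14 lists. Of the peaks of Pol II 1188_2, 36.5% overlapped Non-stop 1924_1 and 49.4% overlapped Non-stop 1924_2 by at least 1 bp. Of those of Pol II 1632_1, 43.1% and 55.2% did so. In the other direction, 84.6% of Non-stop 1924_1 peaks and 80.4% of Non-stop 1924_2 peaks overlapped Pol II 1188_2, and 73.8% and 65.4% overlapped Pol II 1632_1. Over the 4 pairs of libraries, 46.0 ± 8.06% of Pol II peaks had Non-stop and 76.1 ± 8.36% of Non-stop peaks had Pol II (SD over 4 pairs, which share libraries). The lowest share of Non-stop peaks lay above the highest share of Pol II peaks. With every peak reduced to 200 bp around its summit this inequality was nearly gone, at 34.3 ± 5.37% of Pol II peaks and 36.8 ± 1.98% of Non-stop peaks. Within each direction, the order of the pairs followed the list that was met: more Pol II peaks met the longer Non-stop list, and more Non-stop peaks met the Pol II list that covered more bases. Counted in bases, 22.0% to 35.2% of Pol II bases lay in Non-stop peaks and 63.3% to 85.7% of Non-stop bases lay in Pol II peaks.

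Summits, which have no width, were read against these shares of bases. Pol II summits lay in Non-stop peaks in 30.4%, 42.8%, 34.1% and 45.2% of cases in the pairs 1188_2 with 1924_1, 1188_2 with 1924_2, 1632_1 with 1924_1 and 1632_1 with 1924_2. These shares were 11.4 to 12.8 times the share of bases covered. Non-stop summits lay in Pol II peaks in 82.0%, 77.1%, 65.3% and 55.4% of cases in the same order of pairs. These were 7.89, 7.42, 9.85 and 8.36 times the share of bases covered, a mean of 8.38 ± 1.05 (SD over 4 pairs). On the main chromosome arms alone the mean fold was 6.17, and off the arms Pol II peaks covered only 0.487% (1188_2) and 0.207% (1632_1) of bases. Non-stop peaks covered only 0.251% (1924_1) and 0.282% (1924_2) there. The fold of Pol II summits was likewise taken over these sparse bases, and its value on the arms is not given here.

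By shared bases, libraries of 1 factor resembled each other more than they resembled the other factor. The Jaccard index (shared bases over all bases covered by either list) was 0.213, 0.271, 0.264 and 0.292 in the 4 pairs of a Pol II and a Non-stop library. It was 0.597 between the Pol II libraries and 0.547 between the Non-stop libraries. All 4 values between factors were below both values within a factor, a mean difference of -0.31 (one-sided exact permutation p = 0.333, the smallest possible; 0.556 adjusted). The index cannot exceed the smaller coverage over the larger. Pol II lists covered 17.5 and 11.1 Mb, and Non-stop lists 4.49 and 6.20 Mb. Much of this order is therefore set by covered bases and is no separate result. With windows of 200 bp around the summits, which leave out called width, the mean difference was -0.19.

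Peaks found in both libraries of a factor met the other factor more often than peaks found in 1. Of the 6147 peaks of Pol II 1188_2 that 1632_1 also had, 56.3% overlapped Non-stop 1924_1 and 69.0% Non-stop 1924_2, compared with 13.4% and 26.5% of the 5293 that 1632_1 lacked. The peaks that 1632_1 lacked were weak, with a median score of 79 against 1125 for the peaks it had. The score is a whole number made from the significance of the peak and is used here to rank peaks within a list. Nearly all Pol II 1632_1 peaks (94.6%) were found in 1188_2, and of the 571 that were not, 7.01% and 7.18% had Non-stop. For Non-stop the gap was smaller: of 1924_1 peaks, 85.7% of those shared with 1924_2 and 75.0% of the others overlapped Pol II 1188_2. Of 1924_2 peaks, 75.6% of those shared and 48.8% of the 4570 others overlapped Pol II 1632_1.

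Non-stop was found at most strong Pol II peaks and at few weak ones. When the peaks of each Pol II library were ranked by score and cut into 5 equal groups (quintiles), the highest quintile of 1188_2 overlapped Non-stop 1924_1 in 88.3% of peaks and the lowest in 6.73%. Against Non-stop 1924_2 these shares were 97.3% and 11.8%. In 1632_1 the highest and lowest quintiles gave 90.6% and 12.9% with Non-stop 1924_1, and 97.9% and 19.6% with Non-stop 1924_2. The share rose at every step from the lowest to the highest quintile in all 4 pairs. The difference between the end quintiles averaged 80.8 ± 3.56 percentage points (SD over 4 pairs).

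Broad Pol II peaks carried Non-stop more often than narrow ones. The broadest and narrowest quintiles of Pol II 1188_2 gave 83.2% and 7.65% with Non-stop 1924_1, and 91.2% and 16.0% with Non-stop 1924_2. For Pol II 1632_1 they gave 74.1% and 18.0% with Non-stop 1924_1, and 80.4% and 31.2% with Non-stop 1924_2. The mean difference was 64.0 ± 13.4 points (SD over 4 pairs), and a broad peak has more bases to be met. Per kb of Pol II peak, the broadest quintile held 0.411 to 0.532 Non-stop summits and the narrowest 0.172 to 0.429. The middle quintile held more than either, 0.443 to 0.928 per kb, in every pair. Over all bases there were 0.051 (1924_1) and 0.072 (1924_2) Non-stop summits per kb. Those bases were 168 Mb, of which the main arms made up 120 Mb and held 96.3% and 97.4% of Non-stop peaks. The background on the arms is therefore higher than these values. Per kb, summits therefore did not keep rising with width.

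Width and score moved together within a Pol II list (Spearman rho across peaks of 0.69 in 1188_2 and 0.63 in 1632_1), so each was also compared within quintiles of the other, which narrow the range of the other property without fixing it. Between the end quintiles of score within quintiles of width, the share of Pol II peaks with Non-stop differed by 50.0 ± 9.95 points on average. Between the end quintiles of width within quintiles of score, it differed by 15.3 ± 12.3 points (SD over 4 pairs each). Among the narrowest quintile of Pol II 1632_1, 61.8% of the strongest peaks and 18.0% of the weakest overlapped Non-stop 1924_2. Among the narrowest of Pol II 1188_2, 20.1% of the strongest and 10.7% of the weakest did so. Narrow Pol II peaks were thus parted by score more in 1632_1 than in 1188_2, and the same held against Non-stop 1924_1 (differences of 20.9 and 1.98 points).

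**Figure D2:**
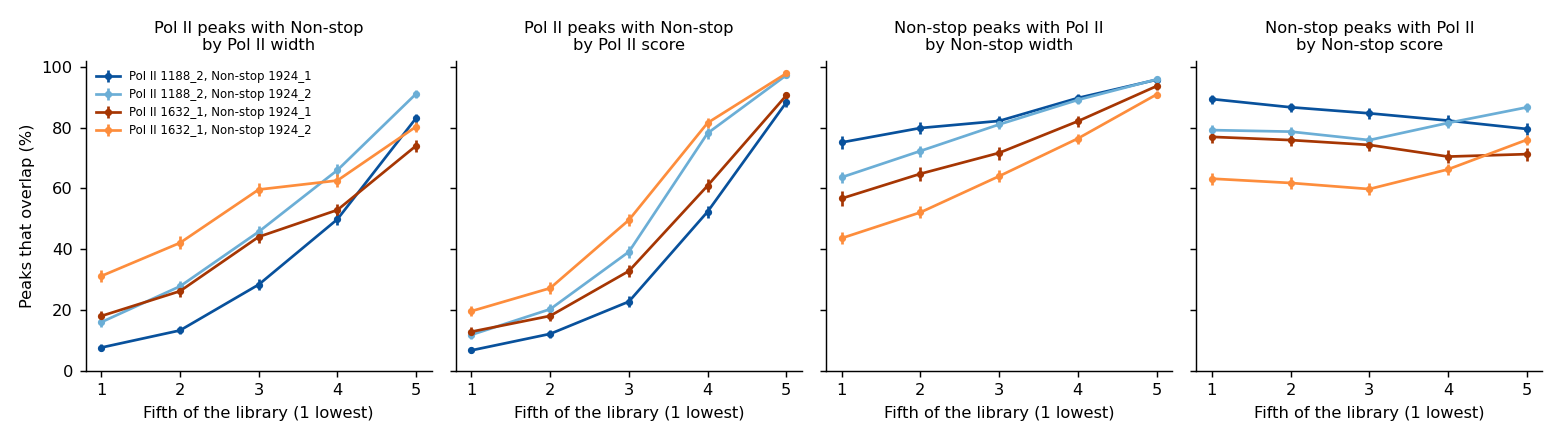
Share of peaks (%) that overlapped the other factor, in quintiles of a list ranked by width or by score (1 lowest, 5 highest), 1 line for each pair of libraries, with 95% Wilson intervals that cover counting error only. Pol II peaks with Non-stop rose with score to 88.3% to 97.9%, while between the end quintiles of Non-stop score the share with Pol II differed by -7.75 points for 1924_1 and 10.1 points for 1924_2.

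The share of Non-stop peaks with Pol II had no common direction with Non-stop score. The highest and lowest score quintiles of Non-stop 1924_1 overlapped Pol II 1188_2 in 79.6% and 89.4% of peaks, and Pol II 1632_1 in 71.3% and 77.0%. Those of Non-stop 1924_2 overlapped Pol II 1188_2 in 86.7% and 79.2%, and Pol II 1632_1 in 76.0% and 63.2%. The mean difference was 1.19 ± 10.7 points (SD over 4 pairs). It was -7.75 points for 1924_1 and 10.1 points for 1924_2, so the 2 Non-stop libraries differed in direction. Width gave a clear order: the broadest and narrowest quintiles of Non-stop peaks overlapped Pol II in 95.8% and 75.2%, 95.9% and 63.7%, 93.7% and 56.7%, and 90.9% and 43.6% of cases, in the same order of pairs. A broad Non-stop peak also has more bases to be met. Per kb, these quintiles held 0.355 and 1.13, 0.479 and 0.807, 0.495 and 0.886, and 0.606 and 0.555 Pol II summits. Only in the last pair was the broadest quintile higher per kb. Within quintiles of width, the strongest Non-stop peaks met Pol II less often than the weakest, by a mean of -17.1 ± 7.70 points. This held in all 4 pairs among the 3 narrower quintiles and was reversed in the 2 broader quintiles of 1924_2.

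The place of contact told strong and weak Non-stop peaks apart. In the highest score quintile of Non-stop 1924_1, 59.0% of summits lay within 250 bp of a summit of Pol II 1188_2, against 16.0% in the lowest. For Non-stop 1924_2 these shares were 63.5% and 14.7%. With Pol II 1632_1 they were 55.4% and 24.4% for 1924_1, and 59.4% and 21.3% for 1924_2, and the share rose at every step in all 4 pairs. Weak Non-stop summits lay more often than strong ones inside a Pol II peak but over 250 bp from every Pol II summit. With Pol II 1188_2, 71.3% of the lowest quintile of 1924_1 did so and 18.6% of the highest, and 62.2% and 21.0% for 1924_2. With Pol II 1632_1 the shares were 49.6% and 9.99% for 1924_1, and 39.0% and 10.5% for 1924_2. Of the weakest and strongest summits of 1924_2, 56.9% and 58.6% lay in a peak of Pol II 1632_1 at all. For 1924_1 these shares were 71.0% and 56.6%. When all peaks were reduced to 200 bp around the summit, the share of Non-stop peaks with Pol II was 36.8 points higher in the highest score quintile than in the lowest, where it was 1.19 points with the called widths. The scores of Non-stop and Pol II peaks that met were weakly related. Spearman rho across 5590 to 9314 Non-stop summits inside Pol II peaks was 0.08 to 0.24, and summits in 1 Pol II peak share its score.

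Seen from the outline of the Pol II peak, Non-stop summits were spread almost evenly. The folded position (distance to the nearer edge over the width, 0 at the edge and 0.5 at the centre) had a median of 0.236, 0.228, 0.229 and 0.214 in the 4 pairs, in the order above. Even placement would give 0.25. The outermost of 5 equal zones from edge to centre held 21.0% to 26.2% of summits and the innermost 16.1% to 19.0%, where even placement gives 20% each. Taken over all widths, Non-stop summits thus lay slightly nearer the edge than even placement would put them. In peaks of Pol II 1188_2 under 1 kb the medians were 0.261 (1924_1) and 0.255 (1924_2), on the centre side of 0.25. In its peaks of 1 to 2 kb they were 0.190 and 0.195. Every other class of width had medians below 0.25 in both Pol II libraries. Among the upper 50% of each list by score the mean of the 4 medians was 0.170, against 0.227 for all peaks.

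Seen from the Pol II summit, the placement was uneven. Non-stop summits lay within 250 bp of the summit of the Pol II peak that held them in 47.9%, 48.9%, 56.4% and 57.6% of cases. Even placement in the same Pol II peaks would give 24.9%, 29.1%, 39.4% and 42.7%. The median distance between the summits was 344 and 296.5 bp in Pol II 1188_2 and 177 and 178 bp in Pol II 1632_1. The Non-stop summit was on the same side of the centre as the Pol II summit in 62.8% to 65.5% of cases, where even placement gives 50%. In Pol II peaks under 1 kb, 93.8% to 94.96% of Non-stop summits lay within 250 bp, which was 1.15 to 1.19 times even placement. In those of 1 to 2 kb, 60.2% to 76.0% did so, 1.71 to 2.15 times even placement. In Pol II peaks of 10 kb and over the share was 10.6% to 13.0%, 3.26 to 3.83 times even placement. The same side was shared in only 50.5% to 53.0% of cases there, and the median distance between summits was 4443 to 5934 bp. In the broadest Pol II peaks some Non-stop summits thus sat at the Pol II summit, and most lay kilobases away.

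**Figure D3:**
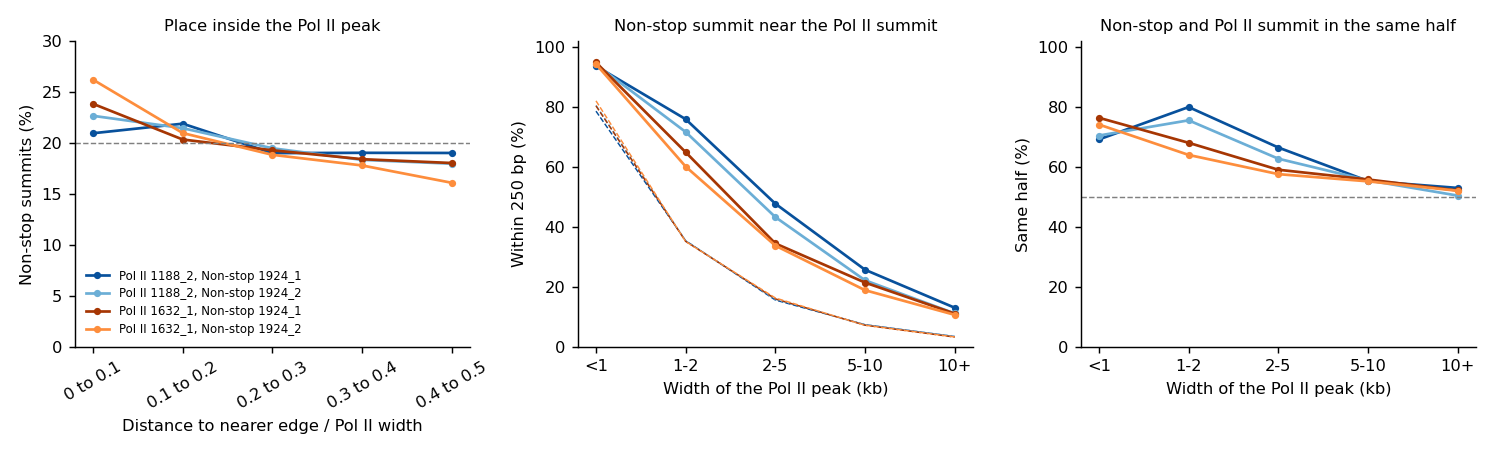
Left, share of Non-stop summits (%) in 5 zones from the edge to the centre of the Pol II peak, with even placement as a dashed line at 20%. Middle and right, share of Non-stop summits within 250 bp of the Pol II summit (dashed, even placement) and on the same side of the centre (dashed, 50%), by Pol II peak width (kb); the share within 250 bp fell with width and stayed above even placement in every class.

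Broad Pol II peaks held several Non-stop peaks each. Pol II peaks with 3 or more Non-stop summits numbered 707, 908, 427 and 493 in the 4 pairs, and 1 peak held as many as 28. Of the Non-stop summits inside Pol II peaks, 62.4%, 62.7%, 49.9% and 49.1% shared their Pol II peak with another Non-stop summit. Of the Pol II peaks over 10 kb, 96.5%, 96.9%, 97.6% and 100% held a Non-stop summit, with a median of 6, 6, 6 and 7 summits. Non-stop summits outside Pol II peaks numbered 1540, 2759, 2968 and 5380. Their median distance to the nearest Pol II peak was 3812, 2523, 1980 and 1979.5 bp. Of these summits, 31.3% to 42.1% lay within 1 kb of a Pol II peak and 35.5% to 45.5% lay over 5 kb away.

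Shares of Pol II peaks with Non-stop differed little among the large arms, while shares of Non-stop peaks with Pol II were lower on X. On the small chromosome 4 each of these shares lay outside the range of the large arms, and the share of Non-stop peaks with Pol II was lowest off the arms. Chromosome 4 had the highest share of Pol II peaks with Non-stop among the arms in every pair (48.7%, 62.3%, 54.4% and 67.3%). It also had the lowest share of Non-stop peaks with Pol II among the arms (77.4%, 71.1%, 57.9% and 50.0%). It holds only 154 and 147 Pol II peaks and 190 and 298 Non-stop peaks, and both factors covered more of it than of any large arm (22.8% and 13.9% in the Pol II libraries, 6.44% and 11.8% in the Non-stop libraries). On X, 84.2%, 79.3%, 69.5% and 59.6% of Non-stop peaks had Pol II, below the other large arms in every pair. Pol II also covered the least of X among the large arms (12.7% and 6.62%). Against that coverage the fold of Non-stop summits in Pol II peaks was, among the arms, highest on X, at 6.39, 5.97, 8.82 and 7.17, and lowest on 4, at 3.28, 2.99, 3.25 and 2.96. On the unplaced and heterochromatic sequences, 31.9% to 55.5% of Non-stop peaks had Pol II. Reads that fit a few places were kept, so peaks there can be misplaced.

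Joining overlapping peaks of the 4 lists gave 13846 regions. All 4 libraries had a peak in 3248 (23.5%), both Pol II libraries without either Non-stop library in 1542, and both Non-stop libraries without either Pol II library in 1018. The most frequent pattern was a peak of a single Pol II library, in 4350 regions, and 1491 had a peak of a single Non-stop library. Median widths were 2533.5 bp with all 4 libraries, 768.5 bp with Pol II without Non-stop and 355.5 bp with Non-stop without Pol II. Pol II at regions without Non-stop was weak, with a median score percentile of 40.2 in 1188_2 and 34.3 in 1632_1, compared with 84.4 and 82.4 where all 4 were present. Non-stop at regions without Pol II had a median percentile of 68.5 in 1924_1 and 69.8 in 1924_2, compared with 68.9 and 80.0 with all 4. Its median fold enrichment there was 4.33 and 4.84, compared with 4.18 and 6.02. These classes need a peak of both libraries of a factor, which itself favours strong peaks. The wider regions can also hold several peaks of a library, and the part of this in the percentiles was not tested. The median Non-stop score was 201 in 1924_1 for peaks shared with 1924_2 and 61 for the others. In 1924_2 these medians were 405 and 96. Regions with a single Non-stop library are not part of this comparison.

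Peaks of the other SAGA subunits were frequent in both classes with Non-stop and rare in the class with Pol II alone. At the 1542 regions with Pol II and no Non-stop, a mean of 2.18 ± 1.60% had Sgf11 (SD, n = 3 libraries), 0.600 ± 0.742% had Ada2b (n = 4) and 1.08 ± 1.42% had Spt3 (n = 3). At the 1018 regions with Non-stop and no Pol II, 61.8 ± 9.10% had Sgf11, 44.7 ± 14.3% had Ada2b and 31.0 ± 20.6% had Spt3. At the regions with all 4, the means were 81.8 ± 4.87%, 46.2 ± 23.9% and 55.2 ± 28.2%. The highest share of any of the 10 libraries at regions with Pol II alone was 4.02%, and the lowest at regions with Non-stop alone was 16.3%, although the Non-stop regions were narrower. Each of the 10 libraries had a higher share at the Non-stop regions. Their peaks covered at most 2.31% of all bases, which understates how often a region of some width would be touched by 1 bp. The share over all joined regions was not computed, so the low shares with Pol II alone have no like background here. The Pol II peaks of the class without Non-stop were also the weaker ones, as given above, and the part of Pol II strength in this contrast was not tested. Non-stop 1924_2 and Sgf11 1924_2 carry the same number, with 1 total chromatin library of that number. The Sgf11 libraries of set 1377 share no number with Non-stop and gave 58.3% and 72.1% at regions with Non-stop alone, against 1.43% and 4.02% at regions with Pol II alone. The regions were called without Ada2b, Spt3 or Sgf11, and all SAGA antibodies were raised in rabbit and that of Pol II in mouse.

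**Figure D4:**
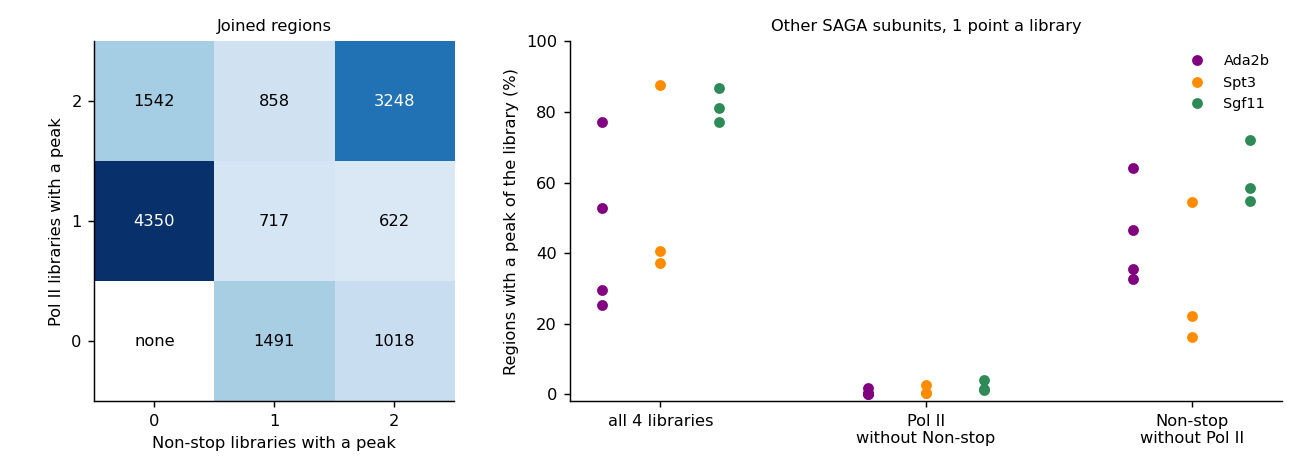
Left, number of joined regions by how many Pol II (rows) and Non-stop (columns) libraries had a peak there. Right, share of regions (%) with a peak of each Ada2b, Spt3 or Sgf11 library, 1 point a library: no library passed 4.02% at regions with Pol II and no Non-stop, and none was below 16.3% at those with Non-stop and no Pol II.

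The strongest regions of each class, by mean score percentile over the libraries that define it, illustrate these patterns (dm3 coordinates, outside 2R). With all 4 libraries, the first was X 3028541 to 3037853, with Pol II folds of 12.9 and 8.67 and Non-stop folds of 15.7 and 12.1. There 1188_2 called 1 peak, 1632_1 called 9 and each Non-stop library called 4. The next were X 10637662 to 10640292, 3R 4638049 to 4646762 (1 Pol II and 6 Non-stop peaks a library) and X 655260 to 659807. All 3 Sgf11 and all 3 Spt3 libraries and 3 or 4 Ada2b libraries had a peak at each of the 4. With Non-stop and no Pol II, the first was 3R 2534525 to 2535009, with Non-stop folds of 16.2 and 14.1 and percentiles of 99.9 and 99.7. It was followed by 3R 12795184 to 12796115, 3R 731515 to 732052 and X 8518839 to 8519333. All 10 other SAGA libraries had a peak at the first 3 of these, and at the last all 3 Sgf11 libraries but 1 of Ada2b and 1 of Spt3. With Pol II and no Non-stop, the first was 3R 7495231 to 7495849, with Pol II folds of 9.26 and 5.76. It was followed by 3L 13021860 to 13022412, 2L 13905071 to 13906094 and 2L 4613946 to 4614490. The highest mean percentile was 89.8 in this class, compared with 99.4 with all 4 and 99.8 with Non-stop alone. Of the 10 other SAGA libraries, 0, 1, 0 and 2 had a peak at these 4 regions. The gene content of the regions was not analysed here.

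Whether Non-stop differed from the other SAGA subunits in its contact with Pol II was asked with the share of peaks that met both Pol II libraries. Peaks of both Pol II libraries shared 6.36% of all bases. The share was 73.3% for Non-stop 1924_1 and 65.0% for Non-stop 1924_2, a mean of 69.2 ± 5.89% (SD, n = 2), against 68.8 ± 5.59% for the 10 other SAGA libraries (range 62.6% to 83.0%). The difference of 0.354 points was smaller than the spread between libraries (two-sided exact permutation p = 0.909, adjusted 1, smallest possible 0.0152). It was -3.81 without Non-stop 1924_1 and 4.52 without Non-stop 1924_2. By subunit the mean was 67.1 ± 2.15% for Ada2b (n = 4), 74.5 ± 7.40% for Spt3 (n = 3) and 65.4 ± 2.51% for Sgf11 (n = 3), and the highest value was Spt3 1530_2. The permutation took all libraries as exchangeable, although libraries of different subunits share numbers. Non-stop and Sgf11 of the shared number 1924_2 gave 65.0% and 66.1%. Among the 1563 strongest peaks of each list, the length of the shortest list, Non-stop gave 71.1% and 77.9%, Ada2b 61.9% to 64.2%, Spt3 68.7% to 79.3% and Sgf11 72.7% to 73.7%. With windows of 200 bp around the summits, the difference was -5.31 points, still within the spread between libraries (exact permutation p = 0.121).

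**Figure D5:**
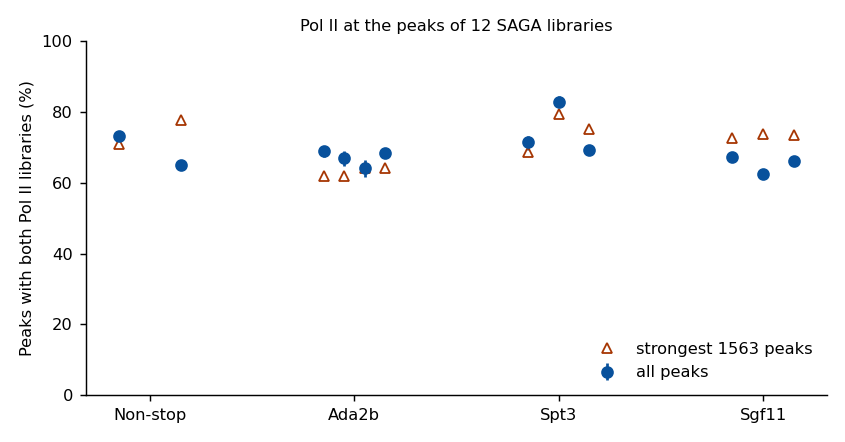
Share of peaks (%) that overlapped both Pol II libraries for each of the 12 SAGA libraries, with 95% Wilson intervals (counting error only), for all peaks (circles) and the 1563 strongest of each list (triangles). Non-stop at 73.3% and 65.0% lay within the range of 62.6% to 83.0% of the other subunits.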

How the data were processed

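ChIP-seq peak lists of 14 libraries were used, in dm3 coordinates. As the methods of the study describe it, the authors mapped reads to dm3 with bowtie, discarded those with many alignments and ran MACS2 with its defaults on each library. That description covers the other SAGA subunits by name, and Pol II and Non-stop were taken to have been treated alike. The control for peak calling and tool versions are not given in the sources used here. The deposited score is a whole number that MACS2 makes from the q-value. The deposited fold enrichment is a ratio of ChIP over background at the summit. The authors' −log10 p and −log10 q values come from MACS2 and served only to describe the lists. No list holds reads, so depth is unknown, and a site below the caller's limit counts as absent.

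All peaks were kept (narrowest 200 bp), and 1 bp of overlap counted as shared. Pol II and Non-stop libraries were compared by exact permutation of libraries, and shares over the 4 pairs were described without a test, since pairs share libraries and peaks are not replicates. Wilson intervals are at 95%. Of the 5 tests, p-values were adjusted by Benjamini-Hochberg. Joined regions were named by the 4 highest mean score percentiles in each of 3 classes on 2L, 3L, 3R, 4 and X. The members and the rule for named regions were chosen with earlier results of these data known. Starts are 1-based. Python 3.11.15, NumPy 2.4.6, pandas 2.3.3 and matplotlib 3.10.9 were used. Overlap counts and Jaccard indices equalled those of bedtools 2.31.1 in 12 of 12 ordered pairs of lists, and the code was tested on simulated lists. No pair of lists was identical.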

Additional observations from a re-analysis of the deposited data

How the results depend on the processing

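Of 124 alternative values for 12 results, 14 had the opposite sign to the main value. They belong to 3 small differences: that between Non-stop and the other SAGA libraries (7), that of Non-stop peaks between end quintiles of score (6) and that in peak number (1). No paired analysis was possible because Pol II and Non-stop share no library number. Keeping the upper 50% of each list by score gave 55.2% of Pol II peaks with Non-stop, 9.80 for the fold of Non-stop summits in Pol II peaks, a folded position of 0.170 and a width difference of 48.0 points. The same number of strongest peaks in each list (8558) gave a folded position of 0.213, and the centre of the Non-stop peak in place of its summit 0.239. Windows of 200 bp around the summit gave 34.3% of Pol II peaks with Non-stop, 36.8% of Non-stop peaks with Pol II and a fold of 13.6. The same windows gave score differences of 71.1 points for Pol II and 36.8 points for Non-stop, and -5.31 points between Non-stop and the other SAGA libraries. With the quintiles of called width, an alternative chosen after seeing the data, these windows gave a width difference of 45.1 points. With 10 groups in place of 5, the score difference of Pol II was 86.9 points. Within quintiles of the other property, Pol II differed by 15.3 points with width and 50.0 with score, and Non-stop by -17.1 with score. The main arms alone gave a fold of 6.17 and a difference between Non-stop and the other SAGA libraries of -0.285 points. With a peak of Pol II 1632_1 alone this difference was -0.165. Leaving out 1 library at a time, it ran from -3.81 to 4.52 points, and was -0.163 without Ada2b 1530_3 and -0.339 without Sgf11 1377_2. The log2 difference in peak number ran from -0.13 to 0.36. The score difference of Non-stop peaks, 1.19 ± 10.7 points, was -3.13 with summits inside peaks, -2.56 by fold enrichment and between -7.75 and 10.1 without 1 library, so it has no stable sign. No test passed 0.05 under any alternative run. Where a value moved, the cause was not tested. With 2 libraries a factor, no comparison of Pol II with Non-stop could go below an exact p of 0.333, and unknown depth limits every statement on absence.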
